A study of Macaca fascicularis and Mus musculus with 42 samples.

Results

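The 8 genes described here are commonly used as markers of amnion or of amnion-like cells: the transcription factor genes HAND1 (gene ID 102132552) and ISL1 (102130233), the keratin genes KRT7 (102119341), KRT18 (102131230) and KRT19 (102133217), and VTCN1 (102117075), GABRP (102136892) and IGFBP3 (102144139). They were taken by symbol from a table of 26018 monkey gene entries, and each symbol had 1 entry. The study induced primordial germ cell-like cells (PGCLCs), precursors of sperm and egg, from embryonic stem cells (ESCs) of the cynomolgus monkey. It sorted cells of the aggregates by day and reporter colour and measured their 3′ RNA ends, from 1 ng of total RNA per library. The series holds 38 monkey and 4 mouse libraries.

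All kept induced libraries came from the ESC line 656BTAG42, which carries 2 reporter transgenes, Blimp1-tdTomato (BT, for PRDM1) and TFAP2C-EGFP (AG). Aggregates received BMP4, SCF, EGF, LIF and Y27632 in 1 of 2 media. GK15 is GMEM with 15% KSR (a serum replacement), and aRB27 is Advanced RPMI1640 with the supplement B27. Cells intermediate for AG (AG mid) gave 1 library from aRB27 on day 2 and 1 from GK15 on day 4. Cells positive for BT alone came from aRB27, with 1 library on day 2 and 2 on day 4. Cells positive for both reporters (BTAG, the PGCLC gate) gave 7 aRB27 libraries (2 on day 2, 2 on day 4 and 3 on day 6). They also gave 8 GK15 libraries (1 on day 2, 1 on day 4, and 2 each on days 6, 8 and 10). The starting ESCs of the reporter lines gave 4 libraries, of which library 2 is the line 656BTAG63. A further 5 ESC libraries came from lines without transgenes (CMK6 in 2 libraries, then 656, 681F and 22). The ESCs grew in AITS with bFGF and IWR1, or in DK20 with bFGF. Libraries of a group are numbered in the order in which they were listed, and no label says that they came from separate cultures. The p-values below therefore measure the spread between these libraries, which may be technical. Of 33 reporter libraries, 9 with doubtful labels were left out of every comparison.

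The amnion is the thin epithelium that encloses the embryo in fluid. In primates it forms early, beside the epiblast, and BMP signalling is known to drive pluripotent cells toward it; in the cynomolgus monkey the early amnion has also been described as a place where primordial germ cells arise. HAND1 is a basic helix-loop-helix factor and ISL1 a LIM-homeodomain factor, and both also act in heart and lateral mesoderm. KRT7, KRT18 and KRT19 are keratins of simple epithelia, whose filaments pair a type II chain (KRT7) with a type I chain (KRT18 or KRT19). VTCN1 (B7-H4) is a membrane protein of the B7 family that restrains T cells, GABRP is the pi subunit of the GABA-A receptor, and IGFBP3 is a secreted protein that binds insulin-like growth factors. Most of these genes are also expressed by other epithelia or by mesoderm, so they are associated with amnion and do not define it.

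Values are reads per 1000000 (RPM), scaled by the authors to the total of each library. The kept libraries held between 1.08 and 6.8 times 1000000 reads, so that 1 read stood for 0.147 to 0.929 RPM, and between 12655 and 16052 entries were above 0 in each. The gates could be checked on the reporter genes. PRDM1 stood at 11.1 RPM (aRB27) and 0.9 RPM (GK15) in AG mid cells, at 101.1 RPM on average in the 3 BT libraries and at 172 RPM in the 15 BTAG libraries, against 0.795 RPM in reporter ESCs. TFAP2C stood at 146 RPM (aRB27) and 24.4 RPM (GK15) in AG mid cells, at 2.12 RPM in BT cells and at 533 RPM in BTAG cells, against 7.01 RPM in reporter ESCs. Each library is a pool of sorted cells, so fewer cells that express a gene and less RNA per cell cannot be told apart.

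**Figure D1:**
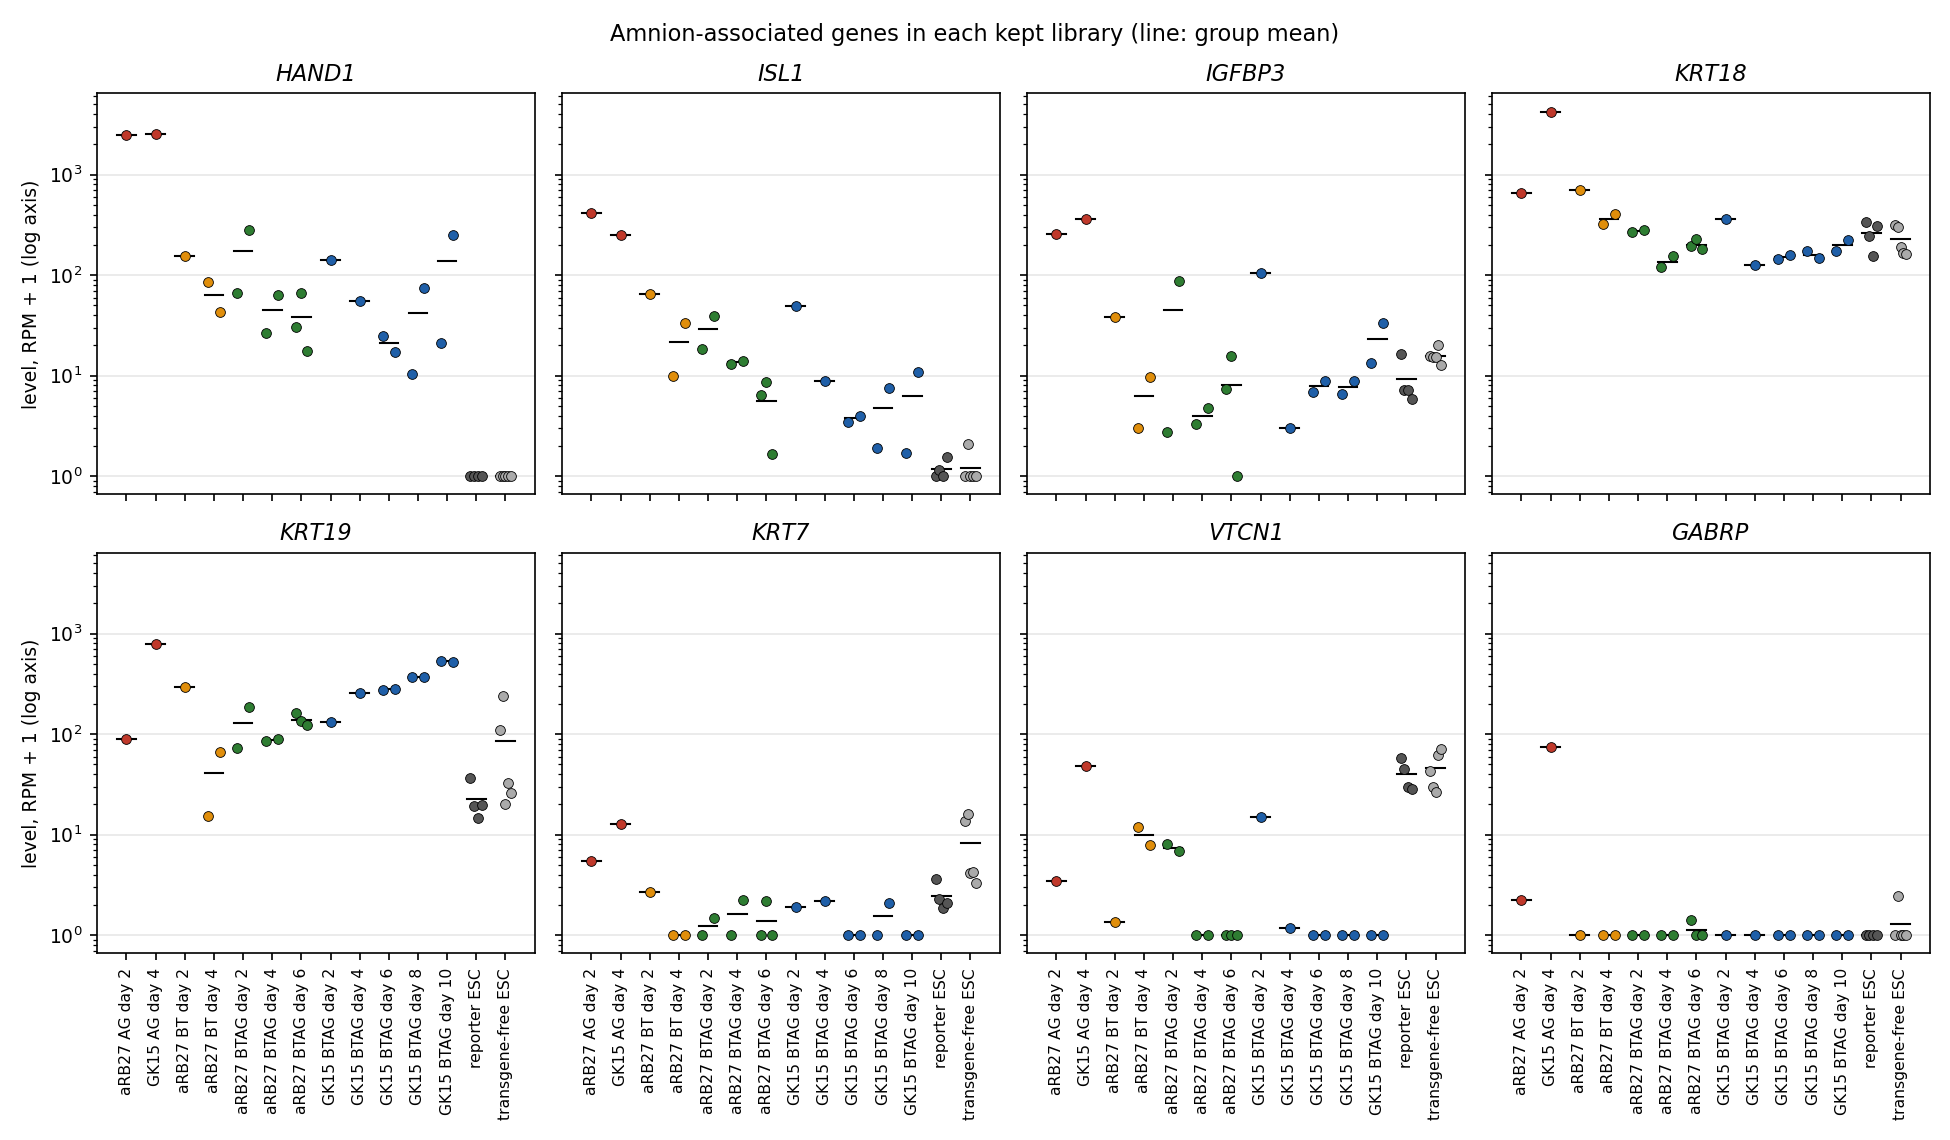
Level of the 8 genes as RPM + 1, on a log axis, with 1 point for each of the 29 kept libraries and a line at each group's mean. Groups run from AG mid (red) and BT (orange) through BTAG in aRB27 (green) and GK15 (blue) to the ESC libraries (grey). HAND1 stood at 2459 and 2541 RPM in the AG mid libraries, against 9.29 to 278 RPM in BTAG libraries and 0 in every ESC library.

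The AG mid cells had the highest HAND1, ISL1 and IGFBP3 of all kept libraries. HAND1 reached 2459 RPM in the aRB27 day 2 AG mid library and 2541 RPM in the GK15 day 4 one. BTAG cells of the same medium and day held 66.0 and 278 RPM (aRB27 day 2) and 54.2 RPM (GK15 day 4), so AG mid cells were 14.3-fold higher in aRB27 and 46.9-fold higher in GK15. No HAND1 read was found in the 4 reporter ESC libraries. With the ESC group set at the floor of 3 reads over the group, HAND1 was at least 11040-fold higher in AG mid cells. ISL1 stood at 415 RPM (aRB27) and 253 RPM (GK15) in AG mid cells, against 17.5 and 38.5 RPM (aRB27) and 7.83 RPM (GK15) in the matched BTAG cells. Its highest reporter ESC value was 0.54 RPM. IGFBP3 stood at 258 RPM (aRB27) and 358 RPM (GK15) in AG mid cells, against 1.75 and 86.3 RPM (aRB27) and 2 RPM (GK15) in matched BTAG cells. For these 3 genes, no kept library of another gate overlapped with the AG mid libraries. How many of all genes separated so was not counted. The statement depends on which libraries were left out. Some left-out libraries labelled BTAG held higher values of these genes, and those labelled AG held little HAND1, as given in the closing observations.

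Across all genes, limma on log2(RPM + 1) tested AG mid against BTAG with both pairs of medium and day weighted equally. A gene was called at a Benjamini-Hochberg adjusted p below 0.05 and a log2 difference of at least 1. Of the 6 members that passed the filter on low values, 5 rose and none fell, where 5.05% of the 10701 genes tested were called higher and 6.02% lower. The log2 difference was 4.85 ± 0.89 for HAND1 (SE, adjusted p = 0.000835), 4.39 ± 0.79 for ISL1 (adjusted p = 0.000722) and 5.48 ± 1.12 for IGFBP3 (adjusted p = 0.0021). KRT18 rose by 3.14 ± 0.26 (adjusted p = 1.24e-07) and VTCN1 by 2.14 ± 0.45 (adjusted p = 0.00256), while KRT19 differed by 0.61 ± 0.47 (adjusted p = 0.516). The median over the 6 was 3.77, beside 0.03 over all genes tested. Each AG mid library is alone in its group, and its spread is taken from the other groups. The running number in the title of the aRB27 one comes shortly after those of libraries left out as doubtful. Without the GK15 AG mid library 2 members were called: KRT18 (1.23) and IGFBP3 (4.07) lost their calls and VTCN1 turned to -1.09. Without the GK15 day 4 BTAG library 3 were called. Among libraries with the title code MS162 alone, which keeps only the aRB27 pair, none were called, with HAND1 at 4.17 and ISL1 at 3.94.

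The 5 members KRT7, KRT18, KRT19, VTCN1 and GABRP differed between the 2 AG mid libraries more than HAND1, ISL1 and IGFBP3 did. KRT18 stood at 4229 RPM in the GK15 day 4 library and at 654 RPM in the aRB27 day 2 one, and KRT19 at 783 and 87.9 RPM in the same order. The aRB27 library lay above its matched BTAG cells for KRT18 (271 and 284 RPM) but between them for KRT19 (71.3 and 185 RPM). GABRP had 488 reads in the GK15 library (72.9 RPM) and 3 reads in the aRB27 library (1.24 RPM). It had no read in the matched BTAG libraries, and GK15 AG mid cells were at least 146-fold higher than these with BTAG cells at a floor of 3 reads. Across all 29 kept libraries GABRP exceeded 3 reads only in the GK15 AG mid library and, with 4 reads, in transgene-free ESC library 2. VTCN1 stood at 47.5 RPM in the GK15 library, against 0.17 RPM in its BTAG partner, and at 2.48 RPM in the aRB27 library, against 7.01 and 5.85 RPM. KRT7 had 79 reads in the GK15 library (11.8 RPM) and 11 in the aRB27 one (4.54 RPM), against 7 reads (1.17 RPM) and at most 1 read in the matched BTAG libraries. The GK15 day 4 library was thus the only kept one with all 8 genes above 3 reads, 7 genes passing that level in the aRB27 AG mid library and 3 to 6 elsewhere. These counts depend on depth as well. A level of 3 reads stood for 0.448 RPM in the GK15 AG mid library and for 1.238 RPM in the aRB27 one, where GABRP missed it. The ratio of the GK15 to the aRB27 library was 1.03 for HAND1, 0.61 for ISL1, 1.39 for IGFBP3, 2.6 for KRT7, 6.47 for KRT18, 8.91 for KRT19, 19.2 for VTCN1 and 58.8 for GABRP, the last resting on 3 reads. The GK15 AG mid library has the title code MS134, and its BTAG partner and the aRB27 libraries of day 2 have MS162, so these 2 libraries differ in medium, day and title code at once, which cannot be told apart, and with 1 library each there is no test.

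Set against reporter ESCs, AG mid cells rose for 5 of the 6 tested members and fell for VTCN1, where 7.23% of genes were called higher and 3.81% lower. ISL1 was higher by 8.14 ± 0.73 (log2, SE, adjusted p = 2.84e-07), IGFBP3 by 5.18 ± 1.03 (adjusted p = 0.0017), KRT19 by 3.63 ± 0.43 (adjusted p = 8.83e-06) and KRT18 by 2.73 ± 0.24 (adjusted p = 2.81e-07). The fitted HAND1 value, 11.29 ± 0.82 (adjusted p = 1.91e-08), depends on the pseudocount because the reporter ESCs are at 0. VTCN1 gave -1.57 ± 0.41 (adjusted p = 0.014), yet only the aRB27 library was below the reporter ESC range of 27.5 to 57.0 RPM. The VTCN1 call was lost with a pseudocount of 0.1 or 10, and its value was 0.33 without the aRB27 AG mid library. The members' median was 4.41, beside 0.08 over all genes. Of all calls, 65.5% were higher with RPM as deposited and 52.2% after quantile scaling. GABRP was at 0 in the 4 reporter ESC libraries, and the GK15 AG mid library was at least 322-fold above their floor.

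Other genes linked to early amnion also rose in AG mid cells. From a list of 14 such genes, 12 were tested, of which 9 rose and none fell against BTAG, and 11 rose and none fell against reporter ESCs. BMP4, a ligand made by early amnion, stood at 295 RPM (aRB27) and 285 RPM (GK15) in AG mid cells, against 0.50 and 2.34 RPM on average in the matched BTAG cells, a log2 difference of 7.07 ± 0.70. WNT6, another secreted ligand, stood at 34.3 RPM (aRB27) and 34.2 RPM (GK15) and was higher by 4.93 ± 0.48. It passed the filter on low values through the AG mid libraries alone. Its direction was thus set by the filter, and the counts above include it. TPM1, an actin-binding protein, stood at 229 RPM (aRB27) and 2537 RPM (GK15) in AG mid cells, and was higher than in BTAG by 5.55 ± 0.91. Against ESCs, the homeobox gene MSX1 was higher by 8.55 ± 0.66 and the transcription factor genes TFAP2A and GATA3 by 7.92 ± 0.55 and 7.13 ± 0.35. GATA3 was not called between AG mid and BTAG cells, with 449 RPM (aRB27) and 271 RPM (GK15), against 296 and 185 RPM. BMP4, WNT6 and GATA3 thus lay within 2-fold between the AG mid libraries, as HAND1, ISL1 and IGFBP3 did, and TPM1 differed as KRT18 did.

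**Figure D2:**
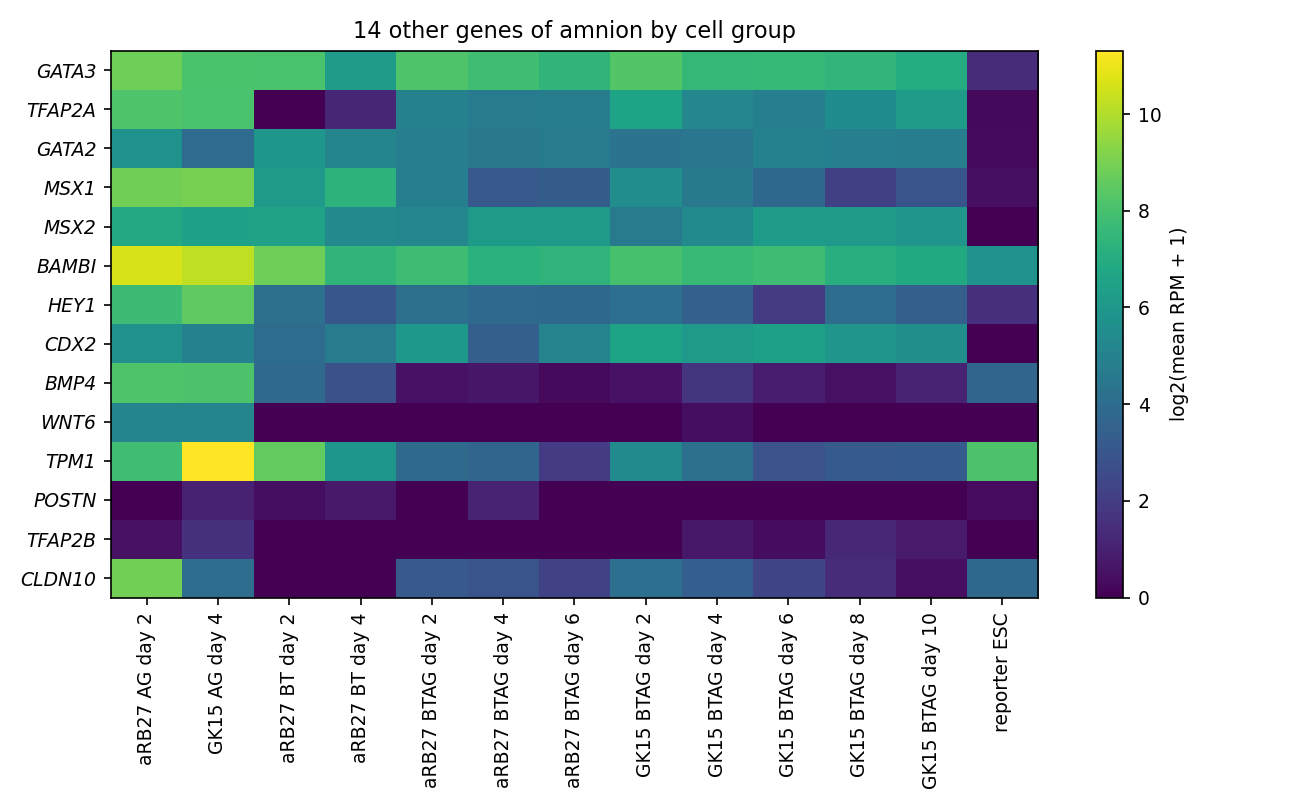
Group means of the 14 other amnion-linked genes in the 13 groups of the reporter lines, with the colour giving log2(mean RPM + 1). BMP4 and WNT6 stood at 295 and 285 RPM and at 34.3 and 34.2 RPM in the AG mid libraries, the 2 columns at the left.

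Markers of other cell types moved with these genes. Of 14 mesoderm genes, 9 were tested, and 7 rose and 1 (GATA4) fell in AG mid against BTAG cells. Among the risers were HAND2 (5.70 ± 0.93 on the log2 scale), MEIS1 (4.96 ± 0.57) and TBX20 (4.49 ± 0.69). HAND2 passed the filter on low values through AG mid and BT libraries alone. MEIS1 and TBX20 did not pass it within the BTAG libraries. Their direction was thus partly set by the filter, and the counts above include such genes. The summed mesoderm list stood at 330 RPM (aRB27) and 900 RPM (GK15) in AG mid cells, against 197 to 357 RPM in matched BTAG cells, with 32.3 to 60.2 RPM in reporter ESCs. The summed trophoblast list, of which 11 genes had an entry, stood at 28.9 RPM (aRB27) and 62.0 RPM (GK15) in AG mid cells, against 25.2 to 36.8 RPM in matched BTAG cells. Its members GCM1, ERVFRD-1, ELF5, CCR7, PAGE4 and VGLL1 were at 0 in both AG mid libraries. CGA, the alpha subunit of chorionic gonadotropin, stood at 0.41 RPM (aRB27) and 7.17 RPM (GK15) in AG mid cells, against 0 in all 15 BTAG libraries. ENPEP, an aminopeptidase, stood at 3.30 RPM (aRB27) and 21.8 RPM (GK15) in AG mid cells, and rose by 3.01 ± 0.68 against reporter ESCs (adjusted p = 0.00486). Of the 3 trophoblast genes tested, PGF, a placental growth factor, rose by 3.32 and SDC1 fell by 1.21 against BTAG cells, and ENPEP differed by 1.76 ± 0.74 (adjusted p = 0.148). The endoderm list of 12 genes, 11 of them tested, had 1 that rose (GATA6, 3.40) and 3 that fell, FOXA2 (-4.43) and GATA4 among them. GATA6 and GATA4 are also in the mesoderm list. Germ cell genes were lower: of 6 tested, none rose and 5 fell against BTAG, among them SOX17 (-5.41), PRDM1 (-5.50) and TFAP2C (-3.42), where PRDM1 and TFAP2C are the genes of the gates. Of the pluripotency genes none rose and 3 fell, NANOG (-6.43) most. The part of mesoderm or trophoblast cells in the HAND1, ISL1 and KRT18 values was not tested.

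In BTAG cells, HAND1, ISL1 and KRT19 rose by day 2 and VTCN1 fell. HAND1 stood at 66.0 and 278 RPM in the aRB27 day 2 libraries and at 140 RPM in the GK15 one, against 0 in the 4 reporter ESC libraries, which puts it at least 713-fold higher. ISL1 stood at 17.5, 38.5 and 48.4 RPM in the same 3 libraries, against 0.15, 0, 0 and 0.54 RPM in reporter ESCs. KRT19 stood at 71.3, 185 and 132 RPM, against 18.5, 35.8, 13.6 and 18.9 RPM in reporter ESCs. In all 3 genes every day 2 library was above every reporter ESC library. How many of all genes separated so, here or on later days, was not counted. VTCN1, in contrast, stood at 7.01, 5.85 and 13.95 RPM on day 2, all below the reporter ESC values of 43.7, 57.0, 29.01 and 27.5 RPM. The log2 differences were 7.12 ± 0.75 for HAND1 (SE, limma adjusted p = 9.39e-07), 4.99 ± 0.67 for ISL1 (adjusted p = 1.70e-05), 2.54 ± 0.40 for KRT19 (adjusted p = 9.37e-05) and -1.87 ± 0.38 for VTCN1 (adjusted p = 0.0012). Thus 3 of 6 members were called higher and 1 lower, against 10.5% and 5.51% of all genes. Among MS162 libraries alone VTCN1 was -1.47 and lost its call.

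KRT18 and KRT19 have near-identical processed copies in the human genome, and how reads of such copies were counted here is not given, so their levels are uncertain. KRT18 stood at 271, 284 and 360 RPM on day 2, against 245, 340, 155 and 304 RPM in reporter ESCs, and its difference of 0.33 ± 0.22 did not pass (adjusted p = 0.324). IGFBP3 was spread over 1.75, 86.3 and 105 RPM on day 2, against 6.18, 15.5, 6.15 and 4.85 RPM in reporter ESCs. Its difference of 2.27 ± 0.94 did not pass (adjusted p = 0.0956). It passed without aRB27 BTAG day 2 library 1, the 1.75 RPM one, at 3.52, and with a pseudocount of 10 or either count model. The day 2 median over the members was 2.41, beside 0.05 over all genes, and 65.6% of all calls were higher with RPM as deposited, against 54.1% after quantile scaling. In the list of other amnion genes, 8 of 12 rose by day 2, led by GATA3 (6.93 ± 0.32), the homeobox gene CDX2 (6.25) and TFAP2A (5.36), and BMP4 and TPM1 fell. Of the 9 mesoderm genes tested, GATA4 and COL6A3 rose by day 2 and none fell, and all 6 germ cell genes rose. Of the 11 endoderm genes tested, 3 rose and none fell: FOXA1, FOXA2 and GATA4, which is in both lists.

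Day 4 BTAG cells were given no test of their own against the ESCs. HAND1 stood at 25.9 and 62.9 RPM in aRB27 and at 54.2 RPM in GK15, and ISL1 at 12.1, 13.1 and 7.83 RPM, so both were below every kept day 2 BTAG library and above every ESC library. IGFBP3 was low, at 2.30, 3.74 and 2 RPM. VTCN1 had no read in aRB27 and 1 read (0.17 RPM) in GK15. KRT18 had its lowest group means among the kept libraries on that day, at 119 and 153 RPM in aRB27 and 127 RPM in GK15.

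On day 6 HAND1 and KRT19 were above every reporter ESC library in each library, and VTCN1 had no read. HAND1 stood at 29.2, 65.7 and 16.5 RPM in aRB27 and at 23.7 and 16.3 RPM in GK15, at least 164-fold and 88.4-fold above the ESC floor. KRT19 stood at 160, 134 and 122 RPM in aRB27 and at 275 and 280 RPM in GK15, against at most 35.8 RPM in reporter ESCs. VTCN1 had no read in any of the 5 day 6 libraries, so that BTAG cells were at least 126-fold lower than the reporter ESCs, which averaged 39.3 ± 13.9 RPM (SD, n = 4). ISL1 stood at 0.66 to 7.62 RPM, the lowest of which is 1 read, against at most 0.54 RPM in reporter ESCs. IGFBP3 stood at 0 to 14.7 RPM, against 4.85 to 15.5 RPM in reporter ESCs, and KRT18 at 144 to 229 RPM, against 155 to 340 RPM.

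In aRB27 on day 6, 3 members rose and 1 fell against reporter ESCs, beside 12.8% and 13.1% of all genes. These were HAND1 (5.04 ± 0.72, adjusted p = 1.91e-05), KRT19 (2.70 ± 0.38, adjusted p = 1.61e-05), ISL1 (1.97 ± 0.65, adjusted p = 0.0215) and VTCN1 (-5.27 ± 0.36, adjusted p = 1.80e-09). Leaving out library 1 or library 3 of this group took the ISL1 call away, at 1.71 and 1.51. In GK15 on day 6, 2 rose and 1 fell, beside 14% and 10.8%. KRT19 rose by 3.71 ± 0.43 (adjusted p = 2.13e-06) and HAND1 by 4.37 ± 0.82 (adjusted p = 0.000398), and VTCN1 fell by 5.27 ± 0.41 (adjusted p = 1.27e-08). HAND1 lost its call with a pseudocount of 10, at 1.57. ISL1 gave 1.70 ± 0.73 there (adjusted p = 0.0872), and KRT18, at -0.73 ± 0.24 (adjusted p = 0.0291), did not reach the size required. Of the 12 other amnion genes, 8 rose and 2 fell in aRB27 on day 6, and 7 rose and 2 fell in GK15. The members' medians were 0.82 (aRB27) and 0.79 (GK15), beside -0.08 and 0.01 over all genes.

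The late GK15 libraries of days 8 and 10 had the highest KRT19 of the BTAG cells. KRT19 stood at 372 and 367 RPM on day 8 and at 534 and 527 RPM on day 10, and the libraries of a day differed by far less than the days did. HAND1 was spread widely instead, at 9.29 and 73.7 RPM on day 8 and 20.1 and 253 RPM on day 10. ISL1 followed it, at 0.93 and 6.58 RPM on day 8 and 0.69 and 9.80 RPM on day 10. In each day, library 2 was thus the high one for HAND1 and ISL1, while KRT18 stood at 174 and 146 RPM on day 8 and 174 and 221 RPM on day 10. The summed mesoderm list stood at 397 and 464 RPM on day 8 and 448 and 330 RPM on day 10 in libraries 1 and 2, so it did not follow HAND1 on day 10. Against reporter ESCs 3 members rose and 1 fell, beside 15.4% and 15.7% of all genes. KRT19 rose by 4.38 ± 0.35 (adjusted p = 9.58e-09), HAND1 by 5.49 ± 0.67 (adjusted p = 1.80e-06) and ISL1 by 1.81 ± 0.60 (adjusted p = 0.0175), and VTCN1 fell by 5.27 ± 0.34 (adjusted p = 4.05e-10). The running numbers in the titles of both library 2 samples follow on from those of 5 libraries left out as doubtful. The same run goes on through kept aRB27 libraries. These are BTAG day 2 library 2, the AG mid library, library 2 of BTAG and of BT on day 4, and BTAG day 6 library 4. With library 1 alone on both days, HAND1 was 3.88 (adjusted p = 3.19e-05) and ISL1 0.65 (adjusted p = 0.42), which ended the ISL1 call. That call was also lost without GK15 BTAG day 8 library 2 (1.32) or day 10 library 2 (1.14) alone. IGFBP3, at 5.57, 7.90, 12.5 and 32.4 RPM, gave 0.60 ± 0.84, and KRT18 gave -0.50 ± 0.20 (adjusted p = 0.0439), under the size required. Of the other amnion genes 8 rose and 3 fell. The members' median was 1.21, beside -0.09. The BTAG comparisons of day 2, day 6 and days 8 and 10, and that of AG mid cells, share the same 4 ESC libraries.

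**Figure D3:**
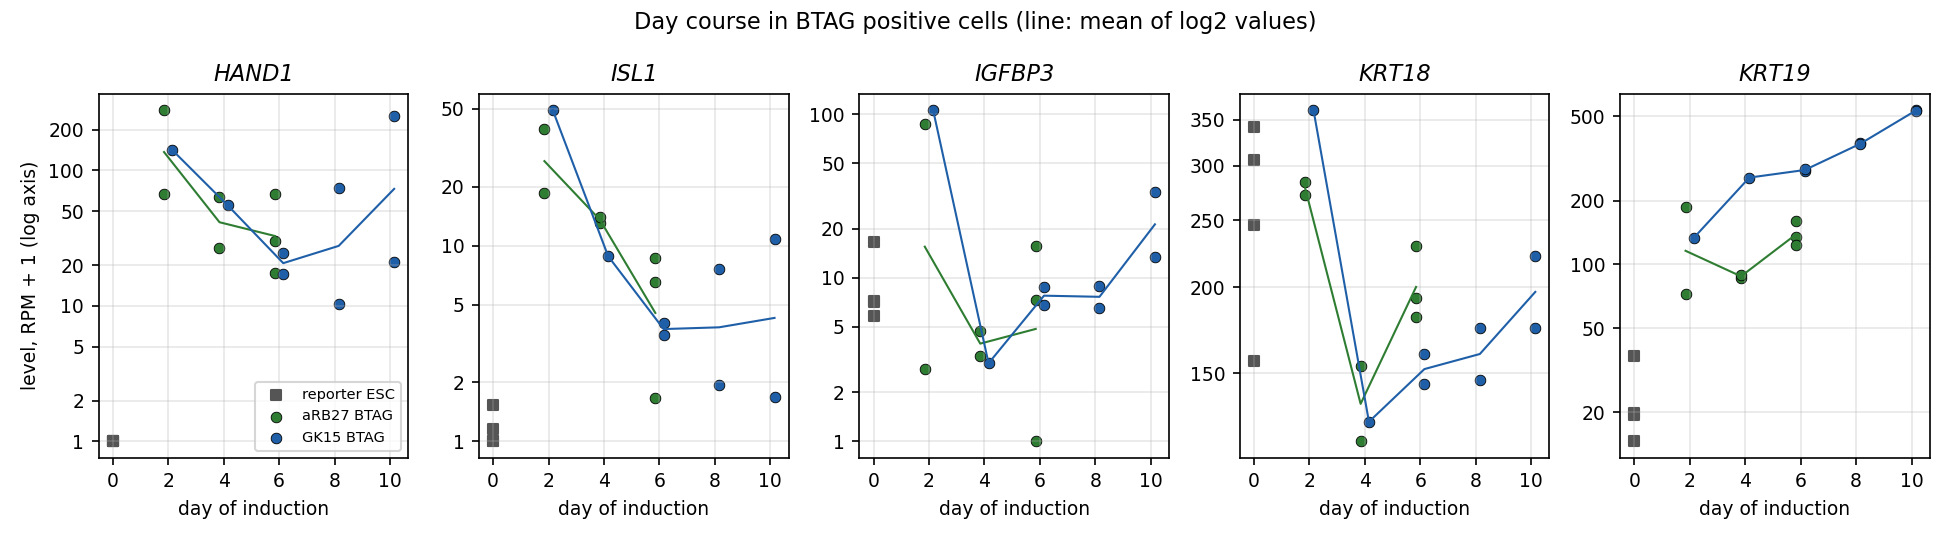
Level of 5 of the genes as RPM + 1, on a log axis, in BTAG cells by day of induction. Green and blue points are aRB27 and GK15 libraries, lines join the means of the log2 values, and grey squares at day 0 are the 4 reporter ESC libraries. KRT19 stood at 275 and 280 RPM on day 6, 372 and 367 RPM on day 8 and 534 and 527 RPM on day 10 in GK15, while HAND1 and ISL1 were high on day 2 and spread widely on days 8 and 10.

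Within the 15 BTAG libraries, a slope on the day of induction, with medium as a term, gave a rise of KRT19 and a fall of ISL1. KRT19 rose by 0.19 ± 0.04 per day on the log2 scale (SE, limma adjusted p = 0.0026), and ISL1 fell by 0.43 ± 0.11 per day (adjusted p = 0.0092). The other members tested, HAND1 (-0.18 ± 0.14), IGFBP3 (-0.16 ± 0.18) and KRT18 (-0.06 ± 0.05), did not pass, and VTCN1 was below the filter. A slope was called at 1 or more over 8 days, and 1 member was called higher and 1 lower, beside 7.14% and 12.2% of 9826 genes. Calls of all genes were 36.9% higher with RPM as deposited and 52.1% after median-of-ratios scaling. Without GK15 BTAG day 2 library 1 the ISL1 slope was -0.32 and lost its call. Without GK15 BTAG day 10 library 2 the HAND1 slope was -0.37 and was called, and with library 1 alone on days 8 and 10 it was -0.43 and was called. Of 10 other amnion genes tested, 1 rose with the day (MSX2) and 5 fell, MSX1 most (-0.41 per day). The kept libraries of days 8 and 10 are all from GK15, so the late part of each slope rests on that medium.

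Library by library in BTAG cells, HAND1 and ISL1 varied together. Their Pearson correlation over the 15 libraries was 0.819 (log2 scale, Spearman 0.80) and 0.729 without the 2 libraries farthest from the HAND1 median. HAND1 and IGFBP3 gave 0.658 (Spearman 0.514). KRT19 gave -0.067 with HAND1 (Spearman -0.168), -0.465 with ISL1 (Spearman -0.496) and 0.293 with IGFBP3 (Spearman 0.446, and 0.629 without the 2 farthest libraries). These values describe libraries that share line, gate and, in part, day, and carry no test. The spread within a group was large: on day 2 in aRB27, library 2 was above library 1 by 4.22-fold for HAND1, 2.2-fold for ISL1 and 49.3-fold for IGFBP3, and by 1.05-fold for KRT18. The running number in the title of that library 2 also comes shortly after those of libraries left out as doubtful.

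Between the media, no member passed. Over days 2 to 6, aRB27 minus GK15 BTAG cells gave 0.07 ± 0.62 for HAND1, 0.01 ± 0.55 for ISL1, 0.04 ± 0.18 for KRT18, -0.41 ± 0.31 for VTCN1 and -1.02 ± 0.78 for IGFBP3 (log2, SE). KRT19 gave -0.92 ± 0.33 with an adjusted p of 0.457 by limma and an unadjusted p of 0.0113. It stood below GK15 on each day but day 2, with 85.2 and 88.4 RPM in aRB27, against 256 RPM in GK15, on day 4. On day 6 aRB27 libraries spanned 122 to 160 RPM, against 275 and 280 RPM in GK15. Few genes were called at all: 0.00934% higher and 0.0748% lower, 9 genes, where 735 had an unadjusted p below 0.05, edgeR called 4 and DESeq2 49. None of these tools called a member, and the count of 9 ranged from 1 to 18 when 1 library was left out. The members' median was -0.20, beside -0.07.

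BT cells, positive for the PRDM1 reporter alone, held more VTCN1 and KRT18 than BTAG cells of the same medium and day, and HAND1 did not pass the test. On day 4 in aRB27, VTCN1 stood at 11.0 and 6.87 RPM in BT cells, against 0 in both BTAG libraries, at least 9.90-fold higher. KRT18 stood at 319 and 402 RPM, against 119 and 153 RPM. Reporter ESCs held 27.5 to 57.0 RPM of VTCN1, above both BT libraries. They held 155 to 340 RPM of KRT18, a range that overlaps the BT values. BT cells were not tested against ESCs. The log2 differences were 3.28 ± 0.48 for VTCN1 (SE, limma adjusted p = 6.56e-05, lost with a pseudocount of 10, at 0.91) and 1.41 ± 0.28 for KRT18 (adjusted p = 0.00145). HAND1 stood at 83.6 and 41.6 RPM, against 25.9 and 62.9 RPM, with a difference of 0.53 ± 0.95. ISL1 gave 0.43 ± 0.85, IGFBP3 0.44 ± 1.19 and KRT19 -1.46 ± 0.50 (adjusted p = 0.0542). KRT19 stood at 14.4 and 65.5 RPM in BT cells, against 85.2 and 88.4 RPM, and its call was made at -2.51 without BT day 4 library 2, the higher one. Thus 2 of 6 members rose and none fell, where 8.05% of genes were called higher and 7.08% lower, and the median was 0.49, beside 0.07. GABRP had no read in any BT library.

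The single BT library of day 2 did not show the VTCN1 difference. It held 0.34 RPM of VTCN1, against 7.01 and 5.85 RPM in BTAG cells, and 295 RPM of KRT19, against 71.3 and 185 RPM. KRT18 stood at 703 RPM, against 271 and 284 RPM, and ISL1 at 63.9 RPM, against 17.5 and 38.5 RPM. HAND1 (153 RPM, against 66.0 and 278 RPM) and IGFBP3 (37.2 RPM, against 1.75 and 86.3 RPM) lay between the BTAG libraries. With 1 library there is no test.

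Other lists moved in BT cells too. Of the other amnion genes, MSX1 rose (4.42 ± 0.76) and 3 fell, TFAP2A (-3.52), CLDN10 (-2.67) and GATA3. Of the 11 endoderm genes tested 7 rose and none fell, among them CER1 (7.53 ± 1.78) and GATA6 (6.56 ± 1.01). Of the 9 mesoderm genes 5 rose and 1 fell, and the list summed to 738 to 1028 RPM in the 3 BT libraries. GATA4 and GATA6 belong to both lists and count as risers in each, so the lists are not independent. The summed trophoblast list stood at 238 RPM on day 2, with CGA at 82.3 RPM and ENPEP at 89.2 RPM, and at 43.3 and 99.9 RPM on day 4. The part of endoderm, mesoderm or trophoblast cells in the VTCN1 and KRT18 values of BT cells was not tested.

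**Figure D4:**
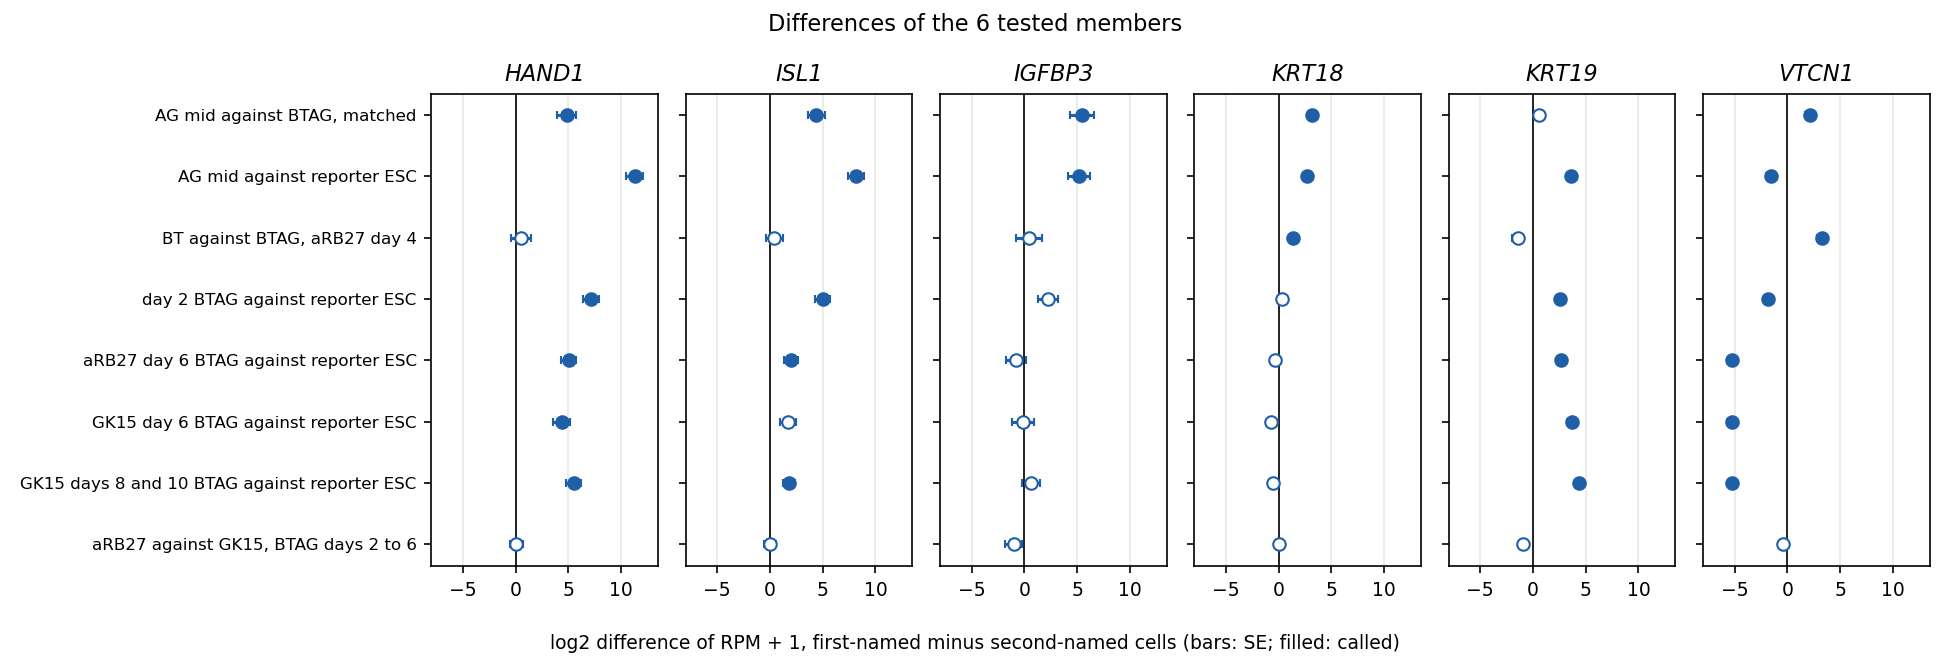
Fitted log2 differences on the RPM + 1 scale of the 6 tested members in 8 comparisons. Points are estimates, filled where called, and bars are 1 SE. HAND1 lies at 4.85 for AG mid against BTAG and at 0.53 for BT against BTAG, and KRT18 at 3.14 and 1.41.

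Among undifferentiated cells, the reporter ESCs and the 5 transgene-free ESC libraries already expressed KRT18, KRT19, VTCN1 and IGFBP3. VTCN1 stood at 27.5 to 57.0 RPM in reporter ESCs and at 25.3 to 69.8 RPM in transgene-free ESCs, with a difference of -0.16 ± 0.35. KRT18 differed by 0.21 ± 0.31. KRT19 stood at 13.6 to 35.8 RPM in reporter ESCs and at 110, 239, 19.2, 32.01 and 25.2 RPM in the transgene-free libraries, the 2 high ones being those of CMK6. KRT7 had the same pattern, with 0.88 to 2.59 RPM in reporter ESCs and 12.7, 15.2, 3.20, 3.26 and 2.33 RPM in transgene-free ESCs. The CMK6 libraries have the title code MS116, the other transgene-free ones MS173, and the reporter ESCs MS134 or MS162. Line, title code and, where it differed, the ESC medium therefore cannot be told apart here. The log2 differences of KRT19 (-1.34 ± 0.64, adjusted p = 0.386), KRT7 (-1.48 ± 0.64, adjusted p = 0.343) and IGFBP3 (-0.90 ± 0.37, adjusted p = 0.316) did not pass by limma. No member was called, where 0.0527% of 9481 genes were called higher and 0.148% lower, with 1270 below an unadjusted p of 0.05. edgeR called 24 genes and no member, and DESeq2 called 316 genes and 1 member, KRT7 (-2.40). HAND1 was at 0 in all 9 ESC libraries.

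The relatives of the members moved in both directions. Of 12 keratin genes outside the members, only 2 passed the filter in the reporter libraries. KRT8, the type II partner of KRT18, stood at 370 RPM (aRB27) and 1527 RPM (GK15) in AG mid cells, against 136 and 104 RPM on average in matched BTAG cells, a log2 difference of 2.66 ± 0.37 (adjusted p = 5.64e-05). KRT10 fell in BTAG cells of aRB27 on day 6 (-1.85). Among the 6 tested genes of the insulin-like growth factor axis, 3 were higher and none lower in AG mid than in BTAG cells: IGFBP5 (6.19 ± 1.27), IGFBP4 (1.94) and the receptor IGF1R (1.49). Against reporter ESCs, AG mid cells had IGFBP5 called higher, but not IGFBP4 (0.17) or IGF1R (0.26). In BTAG cells of aRB27 on day 6 none of the 6 genes rose and 4 fell against ESCs, IGFBP4 most (-3.93). Among 8 tested partners and relatives of ISL1 and HAND1, HAND2 rose by 5.70 ± 0.93 in AG mid cells. It passed the filter through AG mid and BT libraries alone. LHX1, a LIM-homeodomain relative of ISL1, rose by 7.61 ± 0.89 in BT cells. Of the B7 family, CD80, a ligand that stimulates T cells, was lower by 2.61 in AG mid than in BTAG cells, and CD276 was lower too (-1.08). Against reporter ESCs neither was called in AG mid cells (0.48 and -0.09), while both rose in day 2 BTAG cells (2.64 and 1.09). Between AG mid and BTAG cells, VTCN1 was higher in the GK15 pair and lower in the aRB27 pair.

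Ordered by group mean, the genes fell into different sequences of cells. For HAND1 both AG mid groups came first, and the 3 day 2 groups of BTAG and BT cells followed with GK15 day 10. From aRB27 BTAG day 2 down to GK15 BTAG day 6 nearly all neighbours overlapped, and the ESC groups came last at 0. ISL1 had AG mid, then day 2, then day 4 groups, with overlapping late BTAG groups between 2.76 and 5.25 RPM and the ESCs last. VTCN1 had the GK15 AG mid library (47.5 RPM), the transgene-free ESCs (45.4 ± 19.7 RPM, SD, n = 5) and the reporter ESCs first, and these 3 overlapped. KRT19 ran from the GK15 AG mid library through GK15 BTAG days 10 and 8, without overlap, to BT day 4 (40.0 RPM) and reporter ESCs (21.7 ± 9.71 RPM, SD, n = 4), which overlapped. In KRT18 the BT day 2 library (703 RPM) ranked above the aRB27 AG mid library, and all other groups from 127 to 360 RPM formed a chain in which most neighbours overlapped. KRT7 was highest in the GK15 AG mid library and in transgene-free ESCs (7.34 ± 6.11 RPM, SD, n = 5), which overlapped.

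Over the 13 group means of the reporter libraries, HAND1 and ISL1 were the most alike pair of members (Pearson 0.93, log2 scale, no test). KRT18 and IGFBP3 gave 0.831, HAND1 and KRT18 0.695, HAND1 and VTCN1 0.122, and VTCN1 and KRT19 -0.335. Over all genes tested, the pattern nearest to HAND1 was that of EFNA1 (0.982), then BAMBI (0.933) and ISL1 (0.93). The nearest to ISL1 was THRA (0.952), to VTCN1 MYEF2 (0.939), to KRT19 RAB25 (0.88), to IGFBP3 CCBE1 (0.918) and to KRT18 KRT8 (0.973). In the RefSeq annotation of the monkey, used for order only, KRT8 and KRT18 are direct neighbours. KRT19 lies between KRT15 and KRT9, and IGFBP3 beside IGFBP1. These likenesses rest on groups of the same line, in which both AG mid groups are single libraries.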

How the data were processed

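The 3′ RNA-seq data are 2 deposited tables of reads per 1000000 (RPM), 1 for the monkey libraries and 1 for the mouse libraries. The authors scaled each library to its total. Per the submitters' processing notes, cutadapt 1.3, TopHat 1.4.1 and Cufflinks 2.2.0 were used, and the notes name the mouse build GRCm38. For the monkey, the build was not given in the sources used here. Its coordinates are left out. The deposited RPM are nearly always whole multiples of the value of 1 read (99.4 to 99.8% of low values, within 0.1 of a step), and the reads recovered this way gave the depths and 2 alternative count tests.

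The 24 kept reporter libraries were fitted together by limma 3.58.1 (R 4.3.3) with an intensity trend, on log2(RPM + 1), with 1 coefficient for each of 13 groups. Genes needed 10 RPM in at least 2 libraries. A gene low in BTAG cells could pass through libraries of another gate, which favours a rise in that gate. P-values were Benjamini-Hochberg adjusted over all genes tested, and calls needed an adjusted p below 0.05 and a log2 difference of at least 1. KRT7 and GABRP did not pass the filter and are given by their reads. The pseudocount makes fold changes of low genes too small. Against a group at 0, bounds set that group at 3 reads in all. Intervals and floors of this kind cover counting error only. Lists are described by their counts and medians. The members and lists were chosen with earlier results of these data known. All members are named, and of each other list up to 3 genes past the threshold with the largest differences. Exceptions, named after their values were seen, are GATA3, GATA6, GATA4, COL6A3, MSX2, PGF, CGA, ENPEP, TFAP2C, IGFBP4 and KRT10 where they are not among these, and the trophoblast genes at 0. Some genes that this rule names are not reported here. Likeness is Pearson's r over the 13 group means, with up to 3 genes for each member.

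The scripts were tested on simulated data. Alternatives were other pseudocounts (0.1 and 10), no filter or a mean of 20 RPM, median-of-ratios and quantile scaling, edgeR 4.0.16 and DESeq2 1.42.0 on recovered reads, all libraries as labelled, MS162 libraries alone, title code as a covariate, and leaving out 1 library at a time. edgeR called 1320 genes for AG mid against BTAG cells and 1747 for BTAG day 2 against ESCs, where limma called 1184 and 1714. No 2 of the monkey libraries were identical (703 pairs, highest r 0.987). No protein, promoter or monkey genome sequence was used here.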

Additional observations from a re-analysis of the deposited data

Results flagged for a closer look

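Among the kept libraries, 4 single values lay far from the rest of their group. IGFBP3 stood at 15.53 RPM in reporter ESC library 2, which is the line 656BTAG63, and at 4.85 to 6.18 RPM in the other 3 libraries. ISL1 stood at 1.08 RPM and GABRP at 1.44 RPM in transgene-free ESC library 2 (CMK6), while the other 4 of that group were at 0. KRT7 stood at 1.10 RPM in GK15 BTAG day 8 library 2, and the other 3 libraries of days 8 and 10, taken as 1 group, were at 0. That library was the deepest of them. There 1 read stood for 0.219 RPM, against 0.692 to 0.929 RPM in the other 3, so their 0 is weak evidence of a lower level. Of the 4 values, those of ISL1, GABRP and KRT7 rest on at most 5 reads each. For values spread normally, chance alone singles out about 1 in 20 groups looked at in this way, and 19 were checked. That rate does not hold for the ISL1, GABRP and KRT7 values, since any lone value above 0 in a group otherwise at 0 is singled out.

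The mouse libraries, which enter no comparison, held more than 3 reads of 4 members in each of the 4 libraries. The 4 libraries of mouse PGCLCs averaged 32.08 RPM for Hand1, 15.36 RPM for Krt7, 81.85 RPM for Krt18 and 58.78 RPM for Igfbp3. Hand1 stood at 10.5 and 6.05 RPM on day 6, against 60.1 and 51.7 RPM on day 4, and Vtcn1 was at 0 in all 4 libraries. Krt19 had 3 and 4 reads on day 6, against 20 and 11 reads on day 4. The difference between the mouse days was not tested.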

How the results depend on the processing

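No paired analysis was possible because the labels name no replicate. Titles carry running numbers, but no label says which of them share a culture or day, and libraries were numbered in listed order. The setting with library 1 alone on days 8 and 10 was chosen after seeing the data. Of 1069 values of single members under the alternatives, 970 kept direction and side of the threshold, 49 lost a call, 13 gained one and 37 turned sign. Turns of sign came from members that were not called, except VTCN1 in AG mid cells. With all libraries as labelled, members called were 0 on day 2, 2 on day 6 in aRB27, 0 on day 6 in GK15, 2 on days 8 and 10, 0 for BT, and 0 for AG mid against BTAG or ESCs. With MS162 alone none were called for AG mid against BTAG. A pseudocount of 10 or a mean of 20 RPM left 1 for BT, and the mean of 20 RPM left 1 for the slope. DESeq2 called 1 between ESC groups. With 1 library left out, AG mid against BTAG gave 2 to 5 and the slope 1 to 3. Causes were not tested.

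Values that turned sign, as ranges with 1 library left out, were IGFBP3 in aRB27 on day 6 (-1.63 to 0.35) and GK15 on day 6 (-0.30 to 0.22). For BT cells they were HAND1 (-0.09 to 1.16), IGFBP3 (-0.40 to 1.29) and ISL1 (-0.45 to 1.31). For AG mid against BTAG they were VTCN1 (-1.09 to 5.37) and KRT19 (-0.38 to 1.61), and against ESCs VTCN1 (-3.47 to 0.33). The slopes of IGFBP3 (-0.28 to 0.10) and KRT18 (-0.091 to 0.021) and VTCN1 between ESC groups (-0.354 to 0.021) also turned. Between media, ranges were ISL1 -0.30 to 0.45, HAND1 -0.27 to 0.41 and KRT18 -0.025 to 0.241. As labelled, the media gave ISL1 -1.36, HAND1 -1.12 and KRT18 -1.09, and ISL1 turned to -0.015 (pseudocount 0.1), -0.057 (pseudocount 10) and -0.11 (MS162 alone). As labelled, GK15 day 6 ISL1 was -0.008, and AG mid against BTAG gave VTCN1 -0.31 and KRT19 -0.25. With MS162 alone, AG mid against BTAG gave VTCN1 -1.09 and KRT19 -0.38, and GK15 day 6 IGFBP3 was 0.45.

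Counts of genes called moved more. With a pseudocount of 10, then a mean of 20 RPM, they were 1012 and 963 on day 2 (1714), 1622 and 1538 in aRB27 on day 6 (2770), 1692 and 1464 in GK15 on day 6 (2649), and 1959 and 1804 on days 8 and 10 (3329). As labelled they were 136 on day 2, 0 in GK15 on day 6, 403 for BT (1619), and 0 for AG mid against BTAG (1184) or ESCs (1182). With MS162 alone they were 1629 in GK15 on day 6, and 289 and 499 for AG mid. A mean of 20 RPM gave 967 for BT, 696 and 665 for AG mid, 1186 for the slope (1904) and 12 between ESC groups (19), where DESeq2 gave 316. Without GK15 AG day 4 or GK15 BTAG day 4 library 1, AG mid against BTAG gave 421 and 452. Between media the 9 calls ranged from 1 to 49, and between ESC groups from 5 to 41 with 1 library left out. Depth limits GABRP, KRT7 and late VTCN1, where most libraries hold no read.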

Other observations

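The 9 reporter libraries with doubtful labels were left out above, and their values are given here without comparison. The library labelled GK15 BTAG day 4 library 2 held 4427 RPM of HAND1, 766 RPM of ISL1, 3463 RPM of KRT18, 1170 RPM of KRT19 and 45.4 RPM of GABRP, with all 8 genes above 3 reads. The library labelled GK15 BTAG day 2 library 2 held 1011 RPM of HAND1, 343 RPM of ISL1 and 465 RPM of IGFBP3. HAND1 stood at 46.7 RPM in the library labelled GK15 AG day 2 and at 11.8 RPM in that labelled GK15 AG day 4 library 2, where GABRP and VTCN1 were at 0. The library labelled reporter ESC library 5 held 159 RPM of HAND1 and 2 RPM of VTCN1. The library labelled GK15 BTAG day 6 library 2 held no HAND1 or ISL1 read and 51.8 RPM of VTCN1. In the libraries labelled aRB27 BTAG, HAND1 stood at 8.45 RPM (day 6 library 2), 89.04 RPM (day 8) and 7.83 RPM (day 10), and VTCN1 was at 0 in all 3.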
